A study of Macaca fascicularis with 3 samples.

Results

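The cells described here are SYCE3-high germ cells, 116 of 7827 deposited barcodes, in single-cell RNA libraries of cynomolgus monkey (Macaca fascicularis) germ cells. A barcode was a member if it held at least 10000 UMIs (unique molecular identifiers, which count captured RNA molecules), had 2 to 20% of them in the 13 mitochondrial genes and had a SYCE3 level of 500 counts per 1000000 UMIs (CPM) or more. It also had to have POU5F1 under 200 CPM and EGR4 plus PIWIL4 under 100 CPM. The first 2 criteria left 2186 barcodes that are called germ cells below. The members were 31 of these cells in the library named E13.5, 28 in E14.5 and 57 in E15.5. The remaining cells were 1606 SYCE3-low cells, with SYCE3 under 500 CPM and POU5F1 under 200 CPM, and 464 POU5F1-high cells. Of the SYCE3-low cells, 235 had STRA8 of 100 CPM or more (63, 42 and 130 cells) and served as a second comparison group.

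Every library was made from 15XRi-AGVT#7, a line of embryonic stem cells whose genotype is labelled wildtype and which carries the reporters TFAP2C-EGFP (AG) and DDX4-tdTomato (VT). Its germ cells were cultured in aggregates with mouse ovarian somatic cells (xenogeneic reconstituted ovaries, labelled ag49+52), and the mouse cells were taken at E13.5, E14.5 or E15.5, which names the library. Live germ cells positive for either reporter, with a high FSC-W scatter signal, and reporter-negative mouse cells with a low one were sorted apart and mixed again before loading. There was 1 library per mouse stage and 1 cell line, the labels name no separate cultures, and the label "Early oogonia" is the same for all 3 libraries.

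In meiotic prophase the sister chromatids of each chromosome are held along a protein axis, programmed double-strand breaks are made and repaired on the homologous chromosome, and the homologues are joined by the synaptonemal complex. In the fetal ovary, oogonia enter this programme under retinoic acid and BMP signals, with STRA8 and MEIOSIN as the transcriptional switch. SYCE3 is a central element protein of the synaptonemal complex, SYCP2 and SYCP3 are axis proteins that become its lateral elements, MSH4 acts in crossover formation, and TEX19 is a germ cell gene linked to transposon control.

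The libraries held 2807, 1565 and 3455 barcodes with 44762884, 30607553 and 70850640 UMIs. The members' UMIs summed to 1391952, 1180264 and 2846258, and the floor of detection used here, 3 counts, lies at 2.16, 2.54 and 1.05 CPM. Members had a median of 44098 UMIs and 7908.5 genes per cell, against 48320 UMIs in SYCE3-low cells and 40978 in STRA8-positive cells, and a median mitochondrial share of 8.08% against 7.71% in SYCE3-low cells. Some barcode sequences occurred in several libraries: 199 in E13.5 and E14.5, 643 in E13.5 and E15.5, 212 in E14.5 and E15.5, and 184 in all 3. Of the members' barcodes, 82 (25, 9 and 48) recurred in another library, against 577 of the 1606 SYCE3-low and 10 of the 464 POU5F1-high cells. The 108 copies held 0.641 to 2.92% of the member's UMIs, with a median of 1.84%, and none was a member in the other library. Where the printed count or median of a gene list moved by over 1.5 times without such barcodes, the value from the 34 members found in 1 library only (6, 19 and 9 cells) is given with it. These sums are smaller than the 20 cells asked of all others.

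The label was checked against marker genes, as summed levels in the members. Markers of early oogonia (TFAP2C, SOX17, NANOS3 and POU5F1) summed to 18.6 to 36.9 CPM in the members and to 1665 to 2072 CPM in POU5F1-high cells. POU5F1 is part of the rule, but TFAP2C, which it does not use, stood at 7.18, 2.54 and 9.13 CPM in the members, at 8.24, 9.75 and 10.9 CPM in SYCE3-low cells (adjusted p = 0.0536, not called) and at 100.4, 98.1 and 125 CPM in POU5F1-high cells. Triplets of values follow the order of mouse stages throughout. The 6 further markers of meiotic prophase, SYCP1, SPO11, DMC1, MEIOB, HORMAD1 and SMC1B, summed to 1468 to 2273 CPM in the members and 378 to 440 CPM in SYCE3-low cells. In STRA8-positive cells they summed to 367 to 430 CPM, no higher than in all SYCE3-low cells. The members and the SYCE3-low cells were thus both far below POU5F1-high cells in TFAP2C, a gene of the early oogonia named by the label. The late oogonia markers DDX4, DAZL and MAEL summed to 633 to 744 CPM, against 558 to 646 CPM in SYCE3-low cells. Oocyte markers summed to 21.6 to 51.7 CPM, of which FIGLA, a transcription factor of the primordial follicle programme, gave 5.75, 34.7 and 12.999 CPM. The egg coat gene ZP3 was at 0, 0.847 and 1.05 CPM and NOBOX at 0, 0.847 and 0 CPM, all at or under the floor.

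RNA of the mouse cells could be counted only through reads assigned to monkey genes. The 12 supporting cell markers summed to 93.2 to 180 CPM in the members, 119 to 144 CPM in SYCE3-low cells and 2773 to 3131 CPM in mouse barcodes. INHA, the inhibin alpha subunit and the most abundant of them in mouse barcodes of E13.5 (1750 CPM), was at 39.5, 35.6 and 47.4 CPM in the members and 11.7, 24.5 and 19.6 CPM in SYCE3-low cells. It was called higher in the members (edgeR log2 fold change 1.17 ± 0.44 (SE), adjusted p = 0.0347), as was WT1 (0.86 ± 0.31 (SE), adjusted p = 0.0267), while GATA4 and FST were called lower. Against STRA8-positive cells INHA was higher too (edgeR log2 fold change 2.41 ± 0.60 (SE), adjusted p = 0.00241). These cells held it at 9.47, 0 and 8.42 CPM. WT1 was also higher than in them (1.13 ± 0.39 (SE), adjusted p = 0.0209), and GATA4 and FST were lower. GATA4 and FST cannot show whether mouse RNA was present, since some sets of germ cells held them at levels like those of mouse barcodes. Other sets held less. FST was at 46.2 to 62.4 CPM in SYCE3-low cells, 0.446 to 4.40 CPM in POU5F1-high cells and 51.2 to 80.4 CPM in mouse barcodes. GATA4 was at 32.1 to 39.99 CPM in POU5F1-high cells and 32.3 to 37.02 CPM in mouse barcodes. It was at 4.24 to 10.8 CPM in the members and 16.1 to 22.8 CPM in SYCE3-low cells. Both genes are part of the supporting cell sums above, and sums without them were not made. The 10 stromal markers summed to 118 to 193 CPM, against 213 to 231 CPM in SYCE3-low cells and 2561 to 3520 CPM in mouse barcodes. Most of the SYCE3-low sum came from MEIS2, at 128 to 140 CPM in SYCE3-low cells and 37.1 to 50.4 CPM in mouse barcodes. PDGFRA was called higher in the members (0.94 ± 0.34 (SE), adjusted p = 0.0292), and COL1A2, TCF21 and MEIS2 lower. Against STRA8-positive cells DCN was called higher (edgeR log2 fold change 1.44 ± 0.50 (SE), adjusted p = 0.0224). MEIS2 and NR2F2 were called lower than in those cells, and PDGFRA was not called (0.73 ± 0.39 (SE)). The epithelial, endothelial and blood markers cannot show whether mouse RNA was present, since several of them were at 0 or at like levels in the mouse barcodes: epithelial markers summed to 49.6 to 108 CPM in the members and 53.9 to 244 CPM in mouse barcodes, endothelial ones to 0.847 to 6.68 and 3.60 to 9.57 CPM, and blood ones to 3.59 to 5.97 and 0.773 to 19.8 CPM. Among the members, 11 of 116 barcodes held 3 or more UMIs of AMHR2 and WNT4, as did 108 of the 1606 SYCE3-low cells. Without such barcodes, an alternative chosen after seeing the data, 3965 genes were higher and 4155 lower than in SYCE3-low cells, against 4040 and 4177 with them. The markers named here were chosen after their values were seen.

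In E13.5, 31 of 537 germ cells were SYCE3-high, a share of 5.77% with a 95% interval of 3.96 to 8.09% (exact Clopper-Pearson). The share was 5.22% (28 of 536 cells, interval 3.50 to 7.46%) for E14.5 and 5.12% (57 of 1113 cells, interval 3.90 to 6.58%) for E15.5. The intervals overlap, but they cover counting error of cells within each library only. No mouse stage had replicate libraries, so a difference in share between stages was not tested. After each cell was thinned to 10000 UMIs, the shares were 7.06%, 5.78% and 5.94%.

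The genes that chose the members, and those known beforehand to mark them, are described without a test. SYCE3 was at 1202, 1291 and 1204 CPM in the summed members and at 91.0, 93.5 and 93.9 CPM in SYCE3-low cells, and single members ranged from 510.4 to 10495 CPM with a median of 931 CPM. SYCP3 was at 1029, 1565 and 1145 CPM in the members and 159, 157 and 143 CPM in SYCE3-low cells. SYCP2 was at 249, 357 and 286 CPM against 35.0, 33.2 and 31.5 CPM. For SYCE3 the rule itself set the groups apart. For SYCP3 and SYCP2 every library's members lay above every SYCE3-low sum, as was the case for 29.9% of tested genes. TEX19 was at 36.6, 32.2 and 37.6 CPM in the members and 1.22, 2.04 and 1.31 CPM in SYCE3-low cells. MSH4 was at 18.7, 15.3 and 22.8 CPM against 0.628, 0.617 and 0.740 CPM. The plot of single cells shows SYCE3 and SYCP3 high together.

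**Figure D1:**
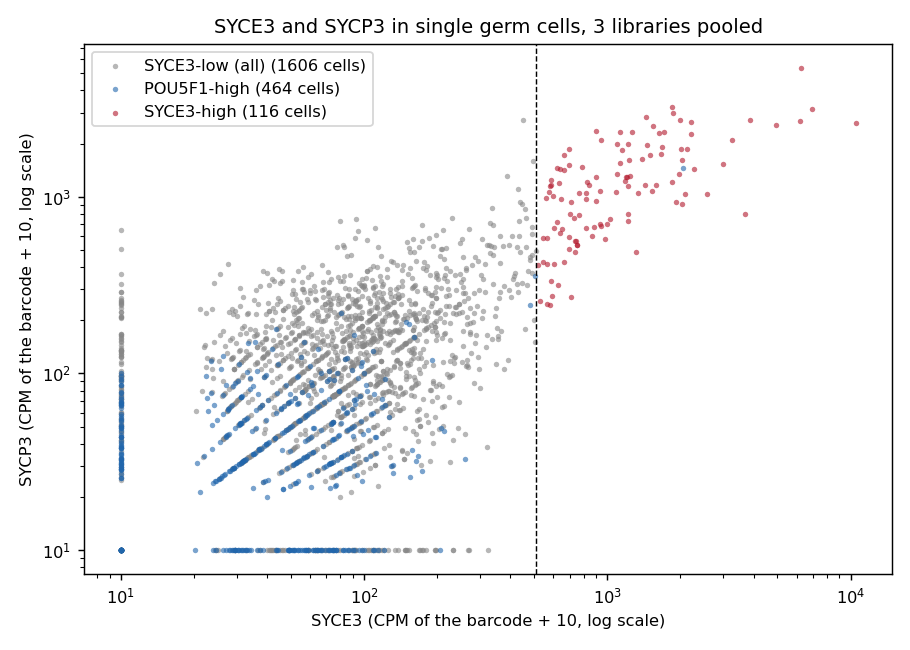
Each point is 1 germ cell, with its SYCE3 level on the x axis and its SYCP3 level on the y axis (CPM of the barcode + 10, log scales); colours give the cell set and the dashed line the SYCE3 threshold of 500 CPM. The 116 SYCE3-high cells lie right of the line and reach SYCP3 levels from 234 to 5348 CPM.

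The 29 cells just outside it, with SYCE3 of 400 to 500 CPM, had SYCP3 at 595 CPM in their pooled UMIs, and the 18 cells just inside it, at 500 to 600 CPM, had 576 CPM. The libraries differed in direction: SYCP3 was at 948, 573 and 507 CPM just outside and at 451, 659 and 681 CPM just inside. HORMAD1 was at 152 CPM just outside and 154.7 CPM just inside, and SPO11 at 14.95 and 12.7 CPM. SYCP1 was at 66.3 CPM just outside and 35.8 CPM just inside, TEX19 at 25.4 and 8.08 CPM and MSH4 at 5.85 and 1.15 CPM. Germ cells with low POU5F1 were further split into SYCE3 bins of 0 to 100, 100 to 300, 300 to 500, 500 to 1000 and 1000 CPM or more, holding 1054, 485, 67, 61 and 55 cells, of which the last 2 bins are the members. SPO11, the enzyme that makes the double-strand breaks, was at 0.249, 0.572, 8.95, 19.2 and 90.4 CPM over these bins. The axis gene HORMAD2 was at 3.08, 4.18, 15.52, 39.96 and 149.7 CPM. SPDYA, which activates CDK2 at telomeres, was at 5.38, 8.62, 43.9, 127 and 359 CPM. Each of these 3 genes was higher in each successive bin and highest in the last one.

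Other genes changed differently over the same bins. REC8, the meiotic kleisin subunit of cohesin, was at 102, 185, 241, 227 and 139 CPM, highest at 300 to 500 CPM and lower again in the cells with most SYCE3. RAD21, the mitotic kleisin, was at 386, 271, 180.0, 130.1 and 62.9 CPM and lower in each successive bin. CCNA2, the cyclin of S phase and G2, was at 126, 80.6, 52.5, 35.2 and 8.73 CPM. BOLL, an RNA-binding protein of the DAZ family, was at 1.19, 8.23, 29.0, 48.0 and 52.4 CPM and differed little between the last 2 bins. ZGLP1, a transcriptional regulator of the oogenic programme, was at 63.9, 50.3, 28.4, 10.6 and 4.80 CPM.

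**Figure D2:**
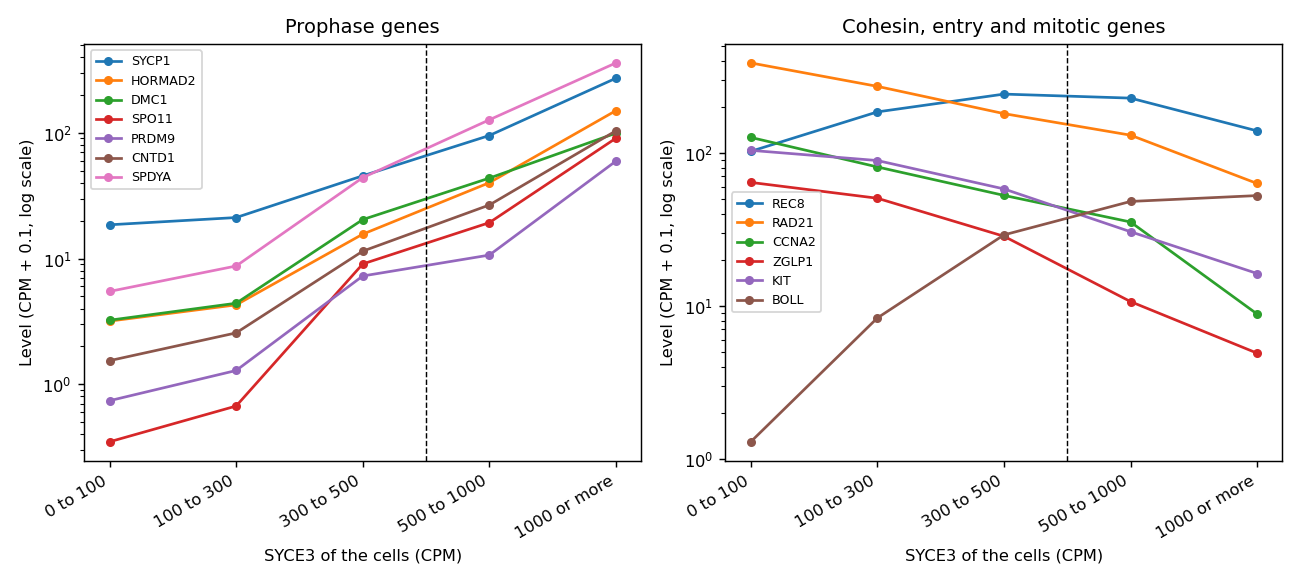
Summed level (CPM + 0.1, log scale) of named genes in germ cells with POU5F1 under 200 CPM, split by the SYCE3 level of the cell; the dashed line is the threshold of 500 CPM. SPO11 went from 0.249 to 90.4 CPM from the first to the last bin, while RAD21 went from 386 to 62.9 CPM and REC8 was highest at 300 to 500 CPM.

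UMIs were then summed per library and cell set and compared with edgeR's quasi-likelihood test, with the library as a block and Benjamini-Hochberg adjustment over all tested genes at a threshold of 0.05. The libraries served as repeats although they differ in mouse stage, so the p-values measure the spread between these libraries only. The cells were split by SYCE3 in the same cells whose other genes were tested. Against SYCE3-low cells, 26.9% of 15023 tested genes were higher in the members and 27.8% lower, and 29.9% and 26.2% of genes were higher or lower with no overlap between the 3 member sums and the 3 SYCE3-low sums. Against STRA8-positive SYCE3-low cells, 25.1% of 14801 genes were higher and 25.8% lower, and 25.9% and 24.7% did not overlap. The median log2 fold change over all tested genes was -0.04 and -0.03. Both comparisons use the same member sums and the STRA8-positive cells are part of the SYCE3-low cells, so they are not independent. The counts of each gene list are to be read against these shares.

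Synaptonemal complex genes beyond those that chose the members were higher in the members: 7 of the 8 tested were called higher and none lower, with a median log2 fold change of 2.74, and the count was the same against STRA8-positive cells, with a median of 2.82. SYCP1, the transverse filament protein that spans the paired axes, was at 94.8, 230.5 and 181 CPM in the members, 14.8, 19.3 and 24.1 CPM in SYCE3-low cells and 17.3, 9.82 and 12.5 CPM in STRA8-positive cells. All 3 member sums lay above all others, and the rise over SYCE3-low cells was 7.91-fold (log2 fold change 2.98 ± 0.21 (SE), adjusted p = 3.29e-08). HORMAD2 was at 51.7, 111 and 93.1 CPM against 4.20, 4.13 and 3.60 CPM in SYCE3-low cells (log2 fold change 4.33 ± 0.27 (SE), adjusted p = 9.62e-09). Its partner HORMAD1, which recruits the break machinery to the axis, was at 296, 318 and 300.04 CPM against 53.9, 46.9 and 52.3 CPM (log2 fold change 2.496 ± 0.10 (SE), adjusted p = 2.51e-10). The 2 HORMAD genes had no overlap between the cell sets. The central element genes TEX12, C7H14orf39 (SIX6OS1), SYCE2 and SYCE1 rose with log2 fold changes of 3.13, 3.26, 2.27 and 1.14. SYCE1 was the least changed of the 7, at 244, 187 and 219 CPM against 88.5, 91.8 and 98.4 CPM. The 1 tested gene of the list that was not called was SYCP2L, an oocyte paralogue of SYCP2, with a log2 fold change of 0.23 ± 0.31 (SE).

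**Figure D3:**
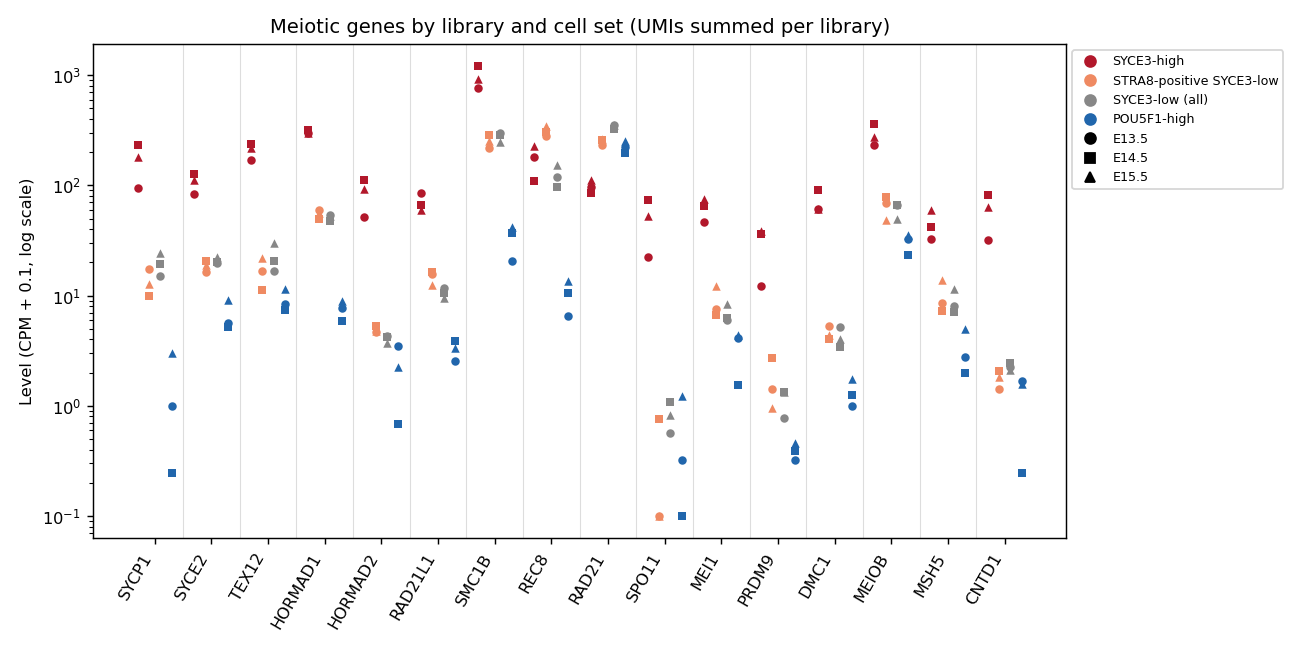
Level (CPM + 0.1, log scale) of 16 meiotic genes in UMIs summed per library, by cell set (colour) and library (marker shape). SYCP1 stands at 94.8 to 231 CPM in the members and at most 24.1 CPM in SYCE3-low cells, whereas RAD21 is lowest in the members at 85.6 to 111 CPM and REC8 is highest in STRA8-positive cells.

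Meiotic cohesin genes were higher than in SYCE3-low cells in 5 of 5 cases, with a median log2 fold change of 1.68. RAD21L1, a meiosis-specific kleisin, was at 84.8, 66.1 and 60.1 CPM against 11.6, 10.4 and 9.34 CPM in SYCE3-low cells (log2 fold change 2.66 ± 0.15 (SE), adjusted p = 4.54e-09). SMC1B, the meiotic SMC subunit, was at 761, 1199.7 and 928 CPM against 299, 287 and 248 CPM (log2 fold change 1.68 ± 0.15 (SE), adjusted p = 5.13e-07). The groups did not overlap for either gene. STAG3, the meiotic stromal antigen subunit, rose by a smaller log2 fold change of 0.54 ± 0.13 (SE), and MEIKIN, a kinetochore regulator of the first meiotic division, by 3.43 ± 0.27 (SE). REC8 was at 182, 110.1 and 227 CPM in the members, 119, 95.7 and 152 CPM in SYCE3-low cells and 283, 305 and 344 CPM in STRA8-positive cells. Its member sums overlapped the SYCE3-low sums (log2 fold change 0.41 ± 0.13 (SE), adjusted p = 0.0166), and that call was lost without E13.5 (log2 fold change 0.34), without E15.5 (0.38) and without the library block (0.44). Against STRA8-positive cells REC8 fell in the members (log2 fold change -0.89 ± 0.13 (SE), adjusted p = 1.78e-05), with every member sum below every STRA8-positive sum. That gene was the single one of the 5 that was lower in this comparison, where the other 4 were higher and the median was 1.88.

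The mitotic kleisin moved the other way. RAD21 was at 96.3, 85.6 and 111 CPM in the members, 350.2, 326 and 351 CPM in SYCE3-low cells and 231, 260.0 and 262 CPM in STRA8-positive cells. It fell against both groups with no overlap, to log2 fold changes of -1.89 ± 0.09 (SE) (adjusted p = 8.41e-10) and -1.39 ± 0.10 (SE) (adjusted p = 8.19e-10). In the list of mitotic cohesin and its regulators 6 of 12 genes were called higher and 4 lower than in SYCE3-low cells, with a median of 0.15. The count of higher genes was 3 without E14.5, 3 without the library block and 3 in barcodes of 1 library only, and the median was 0.06 without E14.5 and -0.06 in those barcodes. ESCO2, the acetyltransferase that makes cohesin cohesive in S phase, rose from 84.7, 69.8 and 54.9 CPM in SYCE3-low cells to 137, 225 and 154.6 CPM in the members (log2 fold change 1.23 ± 0.14 (SE), adjusted p = 5.64e-06). NIPBL, the cohesin loader, was at 486, 493 and 518 CPM against 239.9, 226 and 234 CPM (log2 fold change 1.02 ± 0.08 (SE), adjusted p = 7.75e-08). The other genes that fell with RAD21, chosen after their values were seen, were PDS5B (-0.61), STAG2 (-0.40) and CDCA5 (-0.78), a cohesion maintenance factor, a mitotic stromal antigen subunit and sororin.

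Genes of double-strand break formation were higher in 10 of 11 cases against either comparison group, with none lower and medians of 1.46 and 1.38. SPO11 was at 22.3, 73.7 and 52.3 CPM in the members and 0.471, 0.987 and 0.715 CPM in SYCE3-low cells. Every member sum lay above every SYCE3-low sum (log2 fold change 5.98 ± 0.36 (SE), adjusted p = 8.34e-09). In STRA8-positive cells SPO11 was at 0, 0.655 and 0 CPM, under the floor, so no fold is given. PRDM9, the histone methyltransferase that places recombination hotspots, was at 12.2, 36.4 and 38.3 CPM against 0.667, 1.23 and 1.23 CPM in SYCE3-low cells (log2 fold change 4.67 ± 0.27 (SE), adjusted p = 4.99e-09). It was lowest in the members of E13.5, as SPO11 was, and 13.02% of its UMIs in the members came from 1 cell. ZCWPW1, a reader of the histone marks made by PRDM9, was at 629, 660.0 and 720.2 CPM against 135.5, 145.8 and 160.5 CPM (log2 fold change 2.11 ± 0.09 (SE), adjusted p = 2.46e-10).

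The other called genes of this list, most of them scaffolds or partners of the break machinery, were also higher. MEI1 rose with a log2 fold change of 3.11 ± 0.19 (SE), ANKRD31 with 1.58 ± 0.12 (SE), C14H11orf80 (TOPOVIBL, the partner subunit of SPO11) with 1.46 ± 0.14 (SE), REC114 with 1.45 ± 0.10 (SE) and CCDC36 (IHO1) with 1.37 ± 0.15 (SE). ZCWPW2 rose with 1.28 and HELLS, a chromatin remodeller that works with PRDM9, with 0.81. HELLS stood at 423, 369 and 316 CPM in SYCE3-low cells and 735, 717 and 591 CPM in the members. MEI4, the 1 tested gene of the list that was not called, had a log2 fold change of 0.82 ± 0.34 (SE) and an adjusted p of 0.0555.

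Of 26 tested genes of strand invasion and repair, 14 were higher and 3 lower than in SYCE3-low cells, with a median of 0.43. DMC1, the meiotic recombinase, was at 60.3, 89.8 and 60.8 CPM in the members, 5.06, 3.33 and 3.92 CPM in SYCE3-low cells and 5.23, 3.93 and 4.30 CPM in STRA8-positive cells. All member sums lay above all others (log2 fold change 3.97 ± 0.22 (SE), adjusted p = 3.56e-09 against SYCE3-low cells). TEX15, which is needed to load recombinases on breaks, was at 193, 187 and 198 CPM against 15.6, 21.8 and 20.3 CPM in SYCE3-low cells (log2 fold change 3.26 ± 0.14 (SE), adjusted p = 3.39e-10).

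The single-strand binding pair MEIOB and SPATA22 rose together, MEIOB from 66.2, 66.2 and 49.4 CPM in SYCE3-low cells to 233, 362 and 272 CPM (log2 fold change 2.17 ± 0.16 (SE), adjusted p = 6.83e-08) and SPATA22 with a log2 fold change of 0.98 ± 0.11 (SE). HSF2BP and C19H19orf57 (BRME1), which bring BRCA2 to meiotic breaks, rose with 1.20 and 2.26, and BRCA2 itself with 0.55. The DMC1 cofactors differed: PSMC3IP (HOP2) had 0.45 ± 0.19 (SE) (adjusted p = 0.052) and MND1 -0.06 ± 0.11 (SE) (adjusted p = 0.685), neither past the threshold against SYCE3-low cells. Against STRA8-positive cells MND1 was higher in the members, at 111, 152 and 103 CPM against 73.8, 74.7 and 71.5 CPM (log2 fold change 0.65 ± 0.12 (SE), adjusted p = 0.000149). NBN, a subunit of the break-resection complex, was lower at 50.3, 38.97 and 37.6 CPM against 71.8, 64.8 and 62.7 CPM in SYCE3-low cells (log2 fold change -0.75 ± 0.11 (SE), adjusted p = 6.44e-05), while its partner RAD50 was higher (0.54 ± 0.09 (SE)). The other genes that fell were ZSWIM7 (-0.53) and RPA1 (-1.42), the latter chosen after its value was seen. RAD51AP2 was at 9.34, 34.7 and 61.5 CPM, but 1 cell held 60.7% of its UMIs in the members. In barcodes of 1 library only, the list had 8 genes higher and 3 lower with a median of 0.33. Against STRA8-positive cells 19 genes of the list were higher and 3 lower with a median of 0.59, a count that was 8 and 1 in those barcodes (median 0.37), 12 and 1 in thinned cells and 15 and 1 without E15.5. BRCA2 was not called in those barcodes (0.23 against SYCE3-low cells), nor was ZSWIM7 in thinned cells (-0.33).

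Of 14 tested crossover genes 9 were higher and 1 lower than in SYCE3-low cells, with a median of 1.47, and 9 were higher and none lower than in STRA8-positive cells, with a median of 1.31. The lower count was 0 without E15.5 in the first comparison, and 1 in the second without E14.5 and in barcodes of 1 library only. CNTD1, a cyclin-like factor of crossover maturation, was at 31.6, 82.2 and 62.9 CPM against 2.16, 2.34 and 2.02 CPM in SYCE3-low cells (log2 fold change 4.63 ± 0.31 (SE), adjusted p = 2.5e-08). C15H9orf84 (SHOC1), which forms a complex on branched DNA with C1H1orf146 (SPO16), was at 18.0, 43.2 and 35.5 CPM against 1.41, 1.79 and 1.53 CPM (log2 fold change 4.23 ± 0.36 (SE), adjusted p = 2.2e-07), and its partner rose with a log2 fold change of 2.92 ± 0.21 (SE). MSH5, the partner of MSH4, was at 32.3, 41.5 and 60.1 CPM against 7.89, 7.03 and 11.5 CPM (log2 fold change 2.25 ± 0.17 (SE), adjusted p = 8.76e-08). None of these genes overlapped between the groups. The ligase CCNB1IP1 (HEI10) rose with 1.88, TEX11 with 1.64, RNF212B with 1.55, the helicase HFM1 with 1.38 and RNF212 with 1.15. The later resolution factors MLH3 and the nuclease MUS81 were not called, with log2 fold changes of -0.04 ± 0.16 (SE) and 0.14 ± 0.20 (SE). EXO1 was lower than in SYCE3-low cells (log2 fold change -0.67 ± 0.19 (SE), adjusted p = 0.00772), a call lost without E15.5 (-0.71) and in thinned cells (-0.75), and not called against STRA8-positive cells (log2 fold change -0.03 ± 0.23 (SE), adjusted p = 0.93).

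In the list of telomere attachment and chromosome movement 7 of 8 tested genes were higher and 1 lower than in SYCE3-low cells, with a median of 1.30, and 4 and 1 were called in barcodes of 1 library only, with a median of 1.01. SPDYA was at 216, 252 and 218 CPM in the members, 7.34, 8.88 and 7.74 CPM in SYCE3-low cells and 8.82, 10.5 and 6.53 CPM in STRA8-positive cells, with no overlap (log2 fold change 4.76 ± 0.20 (SE), adjusted p = 2.58e-10). CCDC79 (TERB1), which ties telomeres to the nuclear envelope, was at 109.9, 158 and 108 CPM against 15.8, 16.5 and 12.99 CPM (log2 fold change 2.95 ± 0.12 (SE), adjusted p = 2.51e-10). CCDC155 (KASH5), the link to dynein outside the nucleus, was at 32.3, 49.1 and 57.3 CPM against 6.75, 7.03 and 9.71 CPM (log2 fold change 2.46 ± 0.19 (SE), adjusted p = 1.15e-07). The 1 gene that fell, chosen after its value was seen, was SUN2 (-1.59), while its paralogue SUN1 rose (0.42).

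Checkpoint genes were mixed, with 7 higher and 2 lower of 14 tested and a median of 0.39, which was 0.22 without E14.5. H2AX, the histone phosphorylated at breaks, was at 157, 136 and 133 CPM against 32.7, 33.1 and 34.1 CPM in SYCE3-low cells (log2 fold change 2.005 ± 0.15 (SE), adjusted p = 7.13e-08). RAD9B and HUS1B, germline paralogues of the 9-1-1 clamp subunits, rose with log2 fold changes of 2.68 ± 0.14 (SE) and 1.91 ± 0.18 (SE), both without overlap. The genes that fell, chosen after their values were seen, were the kinase CHEK2 (-1.55 ± 0.24 (SE)) and BARD1 (-1.43 ± 0.16 (SE)), the partner of BRCA1.

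Regulators of meiotic entry moved in both directions, 10 of 19 higher and 8 lower than in SYCE3-low cells, with a median of 0.51. In barcodes of 1 library only 9 were higher and 5 lower, with a median of 0.20. BHMG1 (MEIOSIN), the partner of STRA8, was at 49.6, 59.3 and 61.5 CPM in the members, 2.39, 3.95 and 3.43 CPM in SYCE3-low cells and 1.96, 5.24 and 3.44 CPM in STRA8-positive cells. It rose with no overlap (log2 fold change 4.06 ± 0.21 (SE), adjusted p = 2.43e-09). STRA8 was at 16.5, 11.01 and 30.2 CPM in the members and 39.6, 32.4 and 48.7 CPM in SYCE3-low cells, and it was lower in every library (log2 fold change -1.07 ± 0.19 (SE), adjusted p = 0.000248). STRA8-positive cells, chosen by it, held 149, 154 and 176 CPM, and 6 of the 116 members (0, 1 and 5) reached their threshold of 100 CPM. In those 6 cells REC8 was at 495 CPM and SPO11 at 4.38 CPM, against 176 and 51.2 CPM in the other 110 members, too few cells for a comparison.

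BOLL was at 61.1, 44.9 and 46.4 CPM in the members and 4.98, 4.87 and 3.58 CPM in SYCE3-low cells (log2 fold change 3.44 ± 0.23 (SE), adjusted p = 2.5e-08). ZGLP1 was at 6.47, 0.847 and 11.9 CPM against 56.5, 66.9 and 56.8 CPM in SYCE3-low cells and 60.1, 92.4 and 67.7 CPM in STRA8-positive cells. Its member level in E14.5 was under the floor. ZGLP1 fell against both groups, with log2 fold changes of -3.002 ± 0.27 (SE) and -3.20 ± 0.26 (SE) (adjusted p = 3.91e-07 and 8.26e-09). DAZL, an RNA-binding protein that licenses germ cells for meiosis, fell by little, at 376, 285 and 340.4 CPM against 446, 361 and 388 CPM (log2 fold change -0.34 ± 0.08 (SE), adjusted p = 0.00189). MEIOC and YTHDC2, which together clear mitotic transcripts, rose with log2 fold changes of 2.42 and 1.498, and both were chosen after their values were seen. Against STRA8-positive cells 8 of 18 tested genes of the list were higher and 7 lower, with a median of 0.15, which was 0.09 without E13.5.

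Transposon defence genes were higher in 17 of 23 cases and lower in 2 than in SYCE3-low cells, with a median of 0.76. ASZ1, a mitochondrial anchor of the piRNA pathway, was at 51.7, 61.9 and 61.5 CPM against 11.5, 13.02 and 16.0 CPM (log2 fold change 2.02 ± 0.14 (SE), adjusted p = 2.82e-08). FKBP6, a co-chaperone of PIWI proteins, was at 77.6, 144 and 145.5 CPM against 24.6, 35.7 and 36.4 CPM (log2 fold change 1.83 ± 0.11 (SE), adjusted p = 7.36e-09), and BTBD18, a regulator of piRNA precursor genes, rose with 2.03 ± 0.20 (SE). MAEL rose from 59.98, 62.2 and 74.3 CPM in SYCE3-low cells to 200.4, 202 and 257 CPM (log2 fold change 1.67 ± 0.09 (SE), adjusted p = 3.63e-09). DDX4, the RNA helicase behind one of the reporters, was not called, at 119, 147 and 147 CPM against 139, 134.6 and 128 CPM (log2 fold change -0.03 ± 0.10 (SE), adjusted p = 0.794). The genes that fell, chosen after their values were seen, were PLD6 (-1.73) and TDRD1 (-0.68). Against STRA8-positive cells 16 were higher and 2 lower, with a median of 0.79, and 10 were higher and 1 lower in barcodes of 1 library only.

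Pluripotency and primordial germ cell genes were lower in 16 of 25 cases and higher in 5, with a median of -1.49. Against STRA8-positive cells 12 of 24 were lower and 5 higher, with a median of -0.69, which was -1.20 without E15.5 and -1.52 in barcodes of 1 library only, with 2 higher. NANOS3, an RNA-binding protein that protects primordial germ cells, was at 1.44, 2.54 and 7.03 CPM in the members and 42.9, 56.1 and 64.8 CPM in SYCE3-low cells (log2 fold change -3.70 ± 0.25 (SE), adjusted p = 2.55e-08). Of its UMIs in the members 56.0% came from 1 cell. UTF1, a chromatin factor of pluripotent cells, was at 10.8, 7.63 and 9.84 CPM against 72.9, 98.5 and 85.4 CPM (log2 fold change -3.21 ± 0.17 (SE), adjusted p = 2.18e-09). PDPN, a surface protein of primordial germ cells, was at 2.16, 1.69 and 7.73 CPM against 37.5, 36.3 and 40.04 CPM (log2 fold change -3.05 ± 0.25 (SE), adjusted p = 1.85e-07). No library overlapped for these genes, though NANOS3 and PDPN were at or under the floor in the members of E13.5 and E14.5. The 5 that were higher, chosen after their values were seen, were GPHA2 (1.18), DPPA5 (0.97), TCL1A (0.79), ETV5 (0.67) and SOX15 (0.64). Against SYCE3-low cells that count was 0 in barcodes of 1 library only and 3 without E13.5.

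Oocyte and follicle genes gave 3 higher and 7 lower of 20 tested, with a median of -0.14. The median was -0.39 without E13.5 and -0.47 without E15.5, and in barcodes of 1 library only it was -0.26 with 1 gene higher. The receptor KIT, which oocytes and primordial germ cells need, was at 28.0, 18.6 and 24.9 CPM in the members and 111, 97.1 and 89.5 CPM in SYCE3-low cells (log2 fold change -2.10 ± 0.12 (SE), adjusted p = 6.83e-09). NLRP7, a maternal-effect gene, was at 136, 103 and 245 CPM against 406, 403 and 489 CPM (log2 fold change -1.51 ± 0.14 (SE), adjusted p = 5.24e-07), and DPPA3 had a log2 fold change of -1.22 ± 0.22 (SE). All 3 fell without overlap. FIGLA was at 5.75, 34.7 and 12.999 CPM in the members, 1.22, 3.58 and 2.66 CPM in SYCE3-low cells and 0.653, 3.27 and 0.859 CPM in STRA8-positive cells, above both in every library (log2 fold change 2.58 ± 0.29 (SE), adjusted p = 3.44e-06 against SYCE3-low cells). The other genes that were higher, chosen after their values were seen, were ZAR1L (1.63) and GDF9 (1.03). In thinned cells none of the list was called higher (0 of 11 tested, median -1.06).

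S phase genes were more often higher than lower in the members: of 35 tested, 19 were higher and 8 lower than in SYCE3-low cells, with a median of 0.36, and 19 were higher and 7 lower than in STRA8-positive cells, with a median of 0.65. In barcodes of 1 library only the median against SYCE3-low cells was 0.09, with 14 higher and 6 lower, and at a SYCE3 threshold of 300 CPM it was 0.16. Without E15.5 the lower count against SYCE3-low cells was 5, and against STRA8-positive cells it was 4 in thinned cells and 4 in barcodes of 1 library only. The list summed to 4461, 4783 and 4752 CPM in the members, 3471, 3160.5 and 3338 CPM in SYCE3-low cells and 2691, 2927 and 3074 CPM in STRA8-positive cells. Every member sum was above every other sum. CCNE2, a cyclin of the G1 to S transition, was at 114, 116 and 90.3 CPM against 14.7, 14.8 and 11.9 CPM in SYCE3-low cells (log2 fold change 2.87 ± 0.11 (SE), adjusted p = 1.57e-10). The origin factors CDC45 and CDC6 rose with log2 fold changes of 2.19 ± 0.12 (SE) and 2.08 ± 0.11 (SE).

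G2 and M phase genes were more often lower than higher against SYCE3-low cells, 23 of 40 lower and 4 higher with a median of -0.47, and more often higher against STRA8-positive cells, 19 higher and 5 lower with a median of 0.51. The list summed to 4137, 5669 and 3532 CPM in the members, 6087, 5492 and 5089 CPM in SYCE3-low cells and 2909, 3469 and 3394 CPM in STRA8-positive cells. Members of E14.5 were thus within the range of SYCE3-low cells and those of E13.5 and E15.5 below it, while all members were above all STRA8-positive sums. The lower count against SYCE3-low cells was 13 without E15.5, 15 without E13.5 and 15 in barcodes of 1 library only, and without E14.5 the split was 26 lower and 1 higher with a median of -0.79. Against STRA8-positive cells the median was 0.25 without E14.5 and 0.21 in thinned cells, where 13 were higher and 5 lower. The lower count there was 3 without E13.5, 2 without E15.5 and 1 in barcodes of 1 library only. At a SYCE3 threshold of 800 CPM, where the member sum of E15.5 alone was left, 12 were higher and 9 lower than in STRA8-positive cells with a median of 0.12. CCNA2 was at 21.6, 31.3 and 22.1 CPM in the members, 113, 111 and 108 CPM in SYCE3-low cells and 37.9, 55.0 and 55.3 CPM in STRA8-positive cells, and fell against both (-2.30 ± 0.18 (SE) and -1.08 ± 0.20 (SE), adjusted p = 8.73e-08 and 0.000172). UBE2C, which targets mitotic cyclins for destruction, was at 71.8, 124 and 50.6 CPM, 221, 219 and 245 CPM and 46.1, 86.5 and 118 CPM in the same sets. It fell against SYCE3-low cells (log2 fold change -1.66 ± 0.28 (SE), adjusted p = 0.00014) and was not called against STRA8-positive cells (log2 fold change -0.16 ± 0.31 (SE), adjusted p = 0.697). The mitotic kinase PLK1 had log2 fold changes of -1.59 ± 0.29 (SE) and -0.19 ± 0.32 (SE) in these comparisons, and the second was not called.

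**Figure D4:**
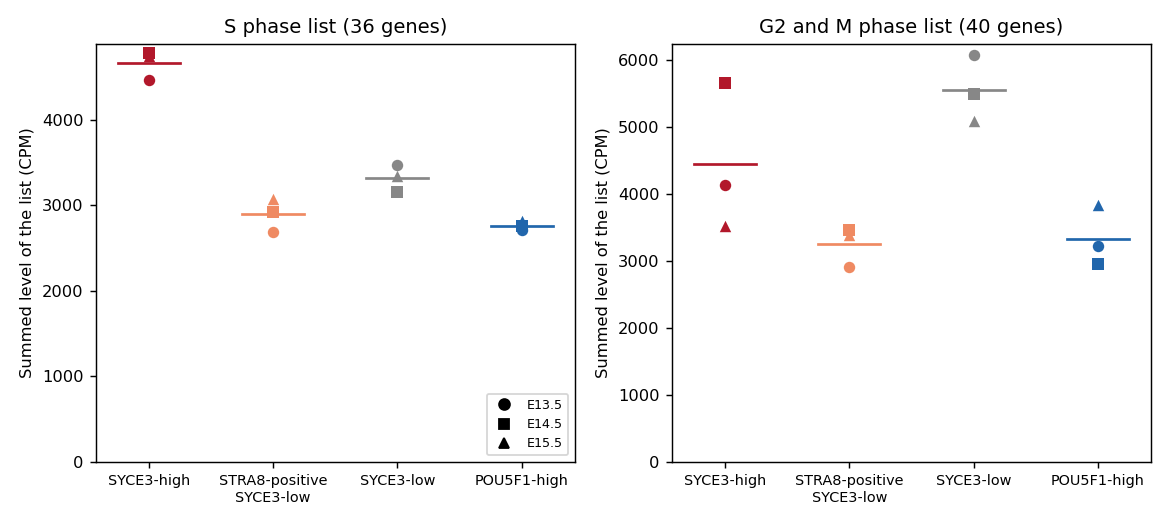
Summed level (CPM, axis from 0) of the S phase list (36 genes) and the G2 and M phase list (40 genes) in each library (marker shape) and cell set, with the mean of the 3 libraries as a bar. S phase sums are highest in the members (4461 to 4783 CPM), whereas G2 and M phase sums of the members (3532 to 5669 CPM) lie between STRA8-positive and SYCE3-low cells in 2 libraries and above both in E14.5.

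Among cyclins and kinase inhibitors 8 of 16 were higher and 3 lower than in SYCE3-low cells, with a median of 0.34, and 5 were higher without E15.5 and 4 in barcodes of 1 library only. The median was 0.17 without E14.5 and 0.12 in those barcodes. CDKN2A, an inhibitor of CDK4 and CDK6, was at 56.0, 53.4 and 56.6 CPM against 7.49, 11.2 and 10.8 CPM (log2 fold change 2.42 ± 0.23 (SE), adjusted p = 6.54e-07). CDKN2D, of the same family, rose with 1.29 ± 0.15 (SE). CDKN1C was at 139, 11.01 and 92.1 CPM against 25.03, 47.3 and 26.0 CPM, with overlapping groups and opposite directions between libraries (log2 fold change 1.30 ± 0.41 (SE), adjusted p = 0.0147), and it was not called by DESeq2 (1.11), without E13.5 (0.63) or without E15.5 (0.955).

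Genes of BMP and retinoic acid signalling were more often lower than higher in the members. Of 19 tested BMP and SMAD target genes 16 were lower and 1 higher than in SYCE3-low cells, with a median of -0.73, and 16 were lower and 2 higher than in STRA8-positive cells, with a median of -0.76. The lower counts were 9 and 7 in barcodes of 1 library only, and the 2 higher were 1 there, without E13.5 and without E15.5. BMPR1B, a type I BMP receptor, was at 18.0, 17.8 and 18.97 CPM in the members, 60.9, 61.0 and 70.3 CPM in SYCE3-low cells and 46.7, 56.3 and 62.2 CPM in STRA8-positive cells, lower against both with no overlap (log2 fold change -1.91 ± 0.14 (SE), adjusted p = 5.88e-08 against SYCE3-low cells). BAMBI, a decoy receptor that BMP signalling induces, was at 52.4, 32.2 and 60.1 CPM against 134, 141 and 149 CPM (log2 fold change -1.58 ± 0.14 (SE), adjusted p = 2.59e-07). The 1 gene of the list that was higher, chosen after its value was seen, was the type II receptor BMPR2 (1.26 ± 0.09 (SE)). Of 17 tested retinoic acid signalling genes 9 were lower and 5 higher than in SYCE3-low cells, with a median of -0.70, and 9 were lower and 2 higher than in STRA8-positive cells, with a median of -0.996. In barcodes of 1 library only, 4 were lower and 2 higher than in SYCE3-low cells, with a median of -0.38, and 1 was higher than in STRA8-positive cells. Without E13.5 the first median was -0.30, and without E15.5 the higher counts were 3 and 1. RXRA, a partner receptor of the retinoic acid receptors, was at 2.87, 9.32 and 8.43 CPM against 30.3, 30.3 and 30.5 CPM (log2 fold change -2.18 ± 0.24 (SE), adjusted p = 2.79e-06), and the receptor RARG was lower too (-1.35 ± 0.20 (SE)), though not in barcodes of 1 library only (-0.80, not called). RBP4, a carrier of retinol, was at 38.8, 22.03 and 102 CPM against 13.8, 12.7 and 25.6 CPM (log2 fold change 1.51 ± 0.19 (SE), adjusted p = 1.01e-05), with the highest value in the members of E15.5 and overlap between the groups.

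**Figure D5:**
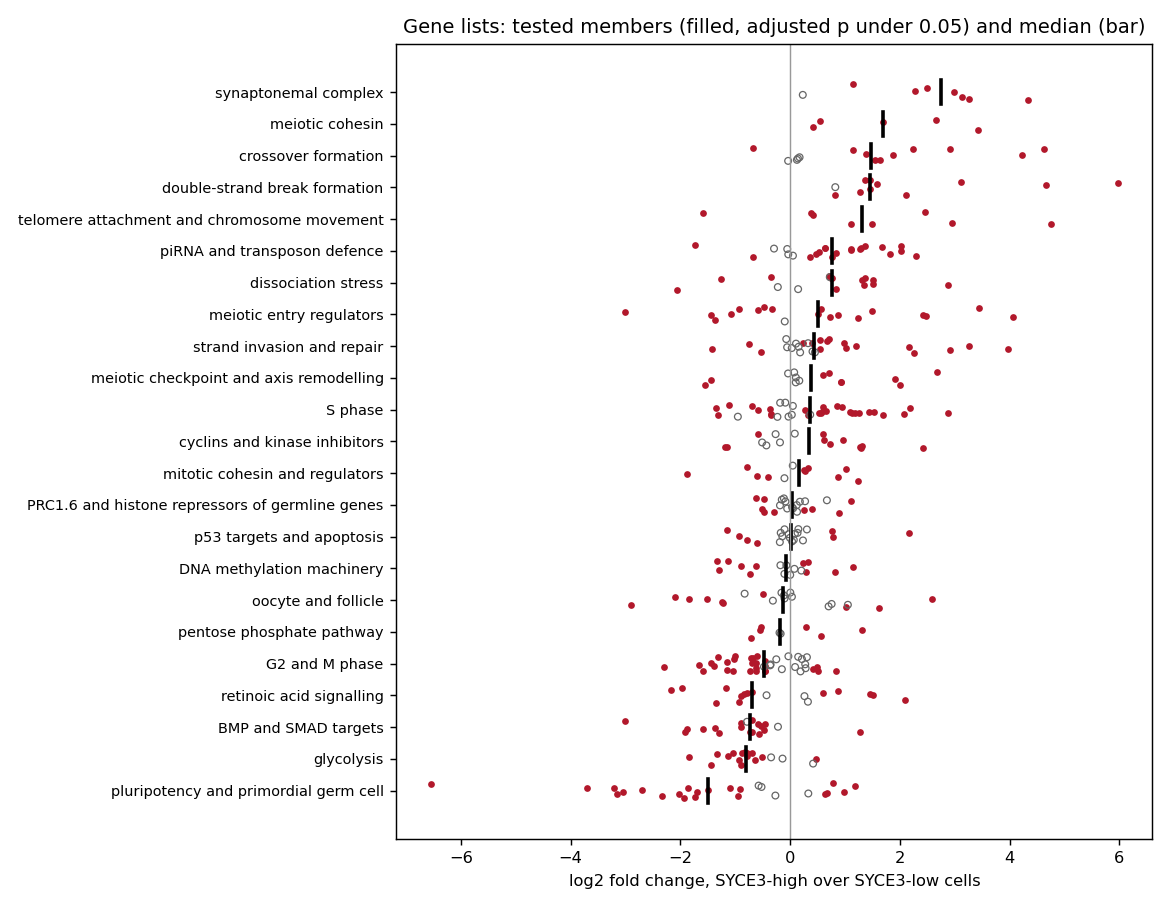
Log2 fold change of the tested genes of each list in SYCE3-high over SYCE3-low cells (x axis), with filled points for adjusted p under 0.05, open points for the others and a bar at the median of the list. The synaptonemal complex list has the highest median (2.74) and the pluripotency and primordial germ cell list the lowest (-1.49).

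The genes with the largest rise over SYCE3-low cells, among those at 20 CPM or more, were CT47C1, ANKRD30BL, SPO11, CSMD1, OTUD6A, RRAD, SPDYA, PRDM9, CNTD1, EAF2, MAGEB17 and SHCBP1L. CT47C1, of a cancer-testis antigen family, was at 62.5, 41.5 and 86.4 CPM against 0.275, 1.91 and 0.493 CPM (log2 fold change 6.38 ± 0.43 (SE), adjusted p = 2.34e-08). OTUD6A, a deubiquitinase gene, was at 125, 130.5 and 117 CPM against 2.90, 2.28 and 3.28 CPM (log2 fold change 5.33 ± 0.17 (SE), adjusted p = 3.62e-11). EAF2, a cofactor of transcription elongation, was at 165, 252 and 201 CPM against 7.45, 7.59 and 8.61 CPM (log2 fold change 4.59 ± 0.13 (SE), adjusted p = 2.7e-11). Levels of CT47C1, OTUD6A, MAGEB17 and ANKRD30BL are uncertain where similar family members share reads. CSMD1 and SHCBP1L had log2 fold changes of 5.68 ± 0.29 (SE) and 4.34 ± 0.21 (SE), MAGEB17 4.36 ± 0.17 (SE) and ANKRD30BL 6.19 ± 0.47 (SE). RRAD was at 99.1, 10.2 and 3.16 CPM, and 1 cell held 83.0% of its UMIs in the members. The largest rises over STRA8-positive cells included 9 of these 12 together with C15H9orf84, PRR20G, at 71.8, 47.4 and 89.2 CPM against 2.29, 2.62 and 1.72 CPM, and EGR3, at 109.9, 0.847 and 24.2 CPM with 39.01% of its UMIs in 1 cell and a member sum under the floor in E14.5. EGR3 was not called in barcodes of 1 library only (0.63).

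The genes with the largest fall against SYCE3-low cells were NANOS3, TBX1, GCNT2, GIP, UTF1, ASB9, PDPN, NKAIN1, ZGLP1, AIF1L, ANGPTL4 and C1H1orf233. TBX1, a T-box transcription factor, was at 2.87, 1.69 and 2.81 CPM against 28.2, 22.3 and 26.9 CPM (log2 fold change -3.50 ± 0.32 (SE), adjusted p = 5.33e-07). Its member level in E14.5 was under the floor. GCNT2, a glycosyltransferase of the I blood group antigen, was at 4.31, 7.63 and 4.57 CPM against 51.6, 49.4 and 46.7 CPM (log2 fold change -3.33 ± 0.22 (SE), adjusted p = 2.15e-08). ASB9, an adaptor of ubiquitin ligases, was at 11.5, 0.847 and 22.1 CPM against 93.2, 91.9 and 152 CPM (log2 fold change -3.14 ± 0.29 (SE), adjusted p = 5.69e-07) and under the floor in the members of E14.5. Agreement in direction in all 3 libraries was part of how the 12 were chosen, and their log2 fold changes ran from -3.70 to -2.89. The 12 largest falls against STRA8-positive cells also included SAMD13 (-3.60), LIN7A (-2.89), the MYC family gene MYCL (-2.82), the sterol hydroxylase CYP27A1 (-2.77), the small GTPase RND2 (-2.64) and the lipoxygenase ALOX12 (-2.64).

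The members varied among themselves. Over the 116 cells SYCP3 had a lowest value of 234, a median of 1145 and a highest value of 5348 CPM, HORMAD1 of 37.2, a median of 282 and a highest value of 922 CPM and ZCWPW1 of 115, a median of 664 and a highest value of 2213 CPM. DMC1 had a lowest value of 0, a median of 47.7 and a highest value of 504 CPM and SPO11 of 0, a median of 18.1 and a highest value of 545 CPM. Some members thus held no UMI of DMC1 or SPO11, whereas SYCP3, HORMAD1 and ZCWPW1 were seen in all of them. As a description over 116 cells that share 3 libraries, and whose levels share each cell's UMI total, Spearman's rho with SYCE3 was 0.659 for SYCP3, 0.666 for SPDYA, 0.665 for SYCE2, 0.648 for HORMAD1 and 0.602 for DMC1. REC8 ran the other way, with -0.338 against SYCE3 and -0.511 against SYCP3, and a median of 147.5 CPM over members that reached from 0 to 846 CPM. STRA8 had -0.441 against SYCP3. The cells' UMI totals had a rho of -0.151 with SYCE3. The summed G2 and M phase list ranged from 218 to 13375 CPM over the members with a median of 2813 CPM, so single members covered levels far below and above the sums of any group.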

How the data were processed

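The authors deposited unnormalised UMI counts of 26017 features in called barcodes of 10x Genomics 3' libraries. Cell Ranger 6.0.1 produced them, per the file headers. The sources used here name no genome build, annotation or use of strand. No doublet caller was run. Of 9282 LOC names, 669 were given symbols from RefSeq gene numbers.

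CPM are UMI counts over the total UMIs of the cells summed. The SE given with an edgeR log2 fold change is the size of that change divided by the square root of the test's F statistic. The compared sums (9 against SYCE3-low and 12 against STRA8-positive cells, each of at least 20 cells, except in barcodes of 1 library only, where member sums held 6, 19 and 9) include POU5F1-high cells to share 1 estimate of the spread, and were tested with edgeR 4.0.16 (filterByExpr, TMM, quasi-likelihood) and limma 3.58.1 under R 4.3.3; sums used Python 3.11.15, pandas 2.3.3 and scipy 1.17.1, and figures matplotlib 3.10.9. The model was tested on simulated data. Genes of the rule and the markers SYCP2, SYCP3, TEX19 and MSH4 were not tested, nor was STRA8 against STRA8-positive cells. Alternatives were DESeq2 1.42.0, upper quartile factors, no filter, no library block, each library left out, other thresholds of SYCE3, STRA8, depth and mitochondrial share, thinning, and leaving out shared or mixed barcodes.

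The members and the 23 gene lists (429 of 448 genes found) were chosen with earlier results of these data known. Named genes are all those at 20 CPM or more in the 5 lists of synapsis, cohesin and recombination, the 12 largest changes each way with 3 of 3 libraries agreeing in direction, and the 3 largest of every other list. RefSeq promoter sequences were not used here. Some genes that this rule names are not reported here.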

Additional observations from a re-analysis of the deposited data

Results flagged for a closer look

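CDKN1C, an inhibitor of cyclin-dependent kinases, had a log2 ratio of SYCE3-high over SYCE3-low cells (CPM + 1) of 2.424 in E13.5 and -2.006 in E14.5, so the libraries moved in opposite directions. TKTL1, a transketolase-like gene, had a ratio of 2.248 in E15.5 and -1.873 in E13.5. IER3, an early response gene, had a ratio of 4.054 in E13.5 and -2.182 in E14.5, and 1 cell held 50.6% of its UMIs in the members. The member levels of TKTL1 in E13.5 and of IER3 in E14.5 were under the floor. With 1 library per stage the differences between libraries were not tested. Besides the members, 143 barcodes with fewer than 10000 UMIs had SYCE3 of 500 CPM or more and entered no comparison. Of these, 116 also occurred in another library. The median over the 143 was 1095 UMIs, a depth at which 1 UMI of SYCE3 passes the threshold. They are thus not a count of further SYCE3-high cells.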

How the results depend on the processing

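Of 212 fold changes of single genes, 170 kept their direction and their call in each of the alternatives in which the gene was tested. The members had 4040 genes higher and 4177 lower than SYCE3-low cells, and 3715 higher and 3823 lower than STRA8-positive cells. In the same order these counts were 2478, 2379, 2089 and 1975 with cells thinned to 10000 UMIs. They were 2070, 2379, 1812 and 1996 in barcodes found in 1 library only, an alternative chosen after seeing the data in which fewer cells enter and sums under 20 cells were kept. With STRA8 of 200 CPM, which leaves the STRA8-positive sum of E15.5 only, the last 2 counts were 1791 and 2136; the lone sum is assumed to vary like the other cell sets, so these counts say little about stability, as do those at SYCE3 of 800 CPM. Leaving out 1 library gave 2884 to 3655, 2850 to 3869, 2596 to 3361 and 2540 to 3395 genes, lowest without E15.5. Without the replicate block, which here is the library, the counts were 3609, 3636, 3298 and 3363; each library holds all cell sets, so the block pairs sums by library. At SYCE3 of 800 CPM the member sum of E15.5 alone was left, and the shares of members were 3.17%, 3.36% and 3.23% by mouse stage; at 300 CPM they were 9.31%, 8.40% and 7.91%.

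In barcodes of 1 library only, the log2 fold changes against SYCE3-low cells of RPA2 (-0.0481), CDKN1C (-0.80), TKTL1 (-0.0918), IER3 (-2.86) and ZFP36 (-0.32) reversed, and that of IER3 passed the threshold in the opposite direction (adjusted p = 0.00465). IER3 also reversed at SYCE3 of 800 CPM (-0.36). The cause was not tested. DESeq2 gave no call for CDKN1C (1.11), IER3 (2.63) and TKTL1 (0.25). The members' summed depth limits detection to 1.05 to 2.54 CPM, and the small number of cells lets 1 cell carry a gene. The planned search of promoters for motifs was not run, since promoter sequences were not used here.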

Other observations

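Genes of glycolysis were lower in the SYCE3-high cells: 14 of 18 tested were lower and 1 higher than in SYCE3-low cells, with a median log2 fold change of -0.81. Against STRA8-positive cells 13 were lower and 1 higher, with a median of -0.69, and 8 were lower in thinned cells and 8 in barcodes of 1 library only. No gene of the list was higher in either comparison in those cells and barcodes or without E15.5, nor than in SYCE3-low cells without E13.5. PFKL, a subunit of phosphofructokinase, was at 17.2, 16.9 and 13.4 CPM (in order of mouse stage) against 37.9, 40.2 and 38.6 CPM in SYCE3-low cells (log2 fold change -1.44 ± 0.17 (SE), adjusted p = 6.12e-06). The glucose transporter SLC2A3 was at 27.3, 40.7 and 27.1 CPM against 85.2, 81.6 and 58.1 CPM (log2 fold change -1.34 ± 0.18 (SE), adjusted p = 2.52e-05). PGAM1, phosphoglycerate mutase, was at 89.1, 71.2 and 113 CPM against 157, 157 and 187 CPM (log2 fold change -0.93 ± 0.10 (SE), adjusted p = 3.61e-06). None of these genes overlapped between the groups. The pentose phosphate pathway gave 3 higher and 3 lower of 8 tested, with TALDO1 higher (0.56 ± 0.09 (SE)) and TKT lower (-0.71 ± 0.12 (SE)), and 1 higher without E15.5. The split was 1 and 1 in barcodes of 1 library only. TKTL1 was at 0.718, 78.8 and 174 CPM against 5.30, 51.9 and 35.9 CPM, a wide spread between libraries in both groups. Its member level in E13.5 was under the floor.

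The DNA methylation machinery gave 5 higher and 6 lower of 17 tested, with 1 higher without E15.5 and 2 higher without either of the other libraries. The split was 1 higher and 3 lower in barcodes of 1 library only. UHRF1, which carries methylation through replication, was at 17.2, 16.1 and 13.4 CPM against 43.5, 34.8 and 32.6 CPM in SYCE3-low cells (log2 fold change -1.34 ± 0.16 (SE), adjusted p = 5.03e-06). The de novo methyltransferase DNMT3B was at 10.1, 11.9 and 10.9 CPM against 26.4, 22.03 and 20.5 CPM (log2 fold change -1.14 ± 0.18 (SE), adjusted p = 0.000108), and the methyl-CpG binder MBD1 at 67.5, 63.5 and 83.97 CPM against 30.4, 28.8 and 32.8 CPM (log2 fold change 1.15 ± 0.11 (SE), adjusted p = 9.99e-07). Among repressors of germline genes 4 of 21 were higher and 5 lower, with PCGF6 higher (0.89 ± 0.10 (SE)), HDAC1 higher (1.12 ± 0.09 (SE)) and E2F6 lower (-0.63 ± 0.13 (SE)), and 2 were higher and 2 lower in barcodes of 1 library only, where E2F6 was not called (-0.45). Of 20 tested p53 targets and apoptosis genes 3 were higher and 4 lower, with SESN2 lower (-1.16 ± 0.14 (SE)), PMAIP1 lower (-0.79 ± 0.17 (SE); not called in thinned cells, -0.42) and SESN1 higher (0.77 ± 0.13 (SE)).

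Genes that rise when tissue is dissociated were higher in 10 of 16 cases and lower in 3 than in SYCE3-low cells, with a median of 0.75, and 6 were higher in barcodes of 1 library only, with a median of 0.20. The list summed to 3882, 2594 and 3311 CPM in the members and 2517.5, 2563 and 2659 CPM in SYCE3-low cells. In E14.5 the 2 sums thus differed little. Against STRA8-positive cells 12 were higher and 1 lower, with a median of 1.40. For that comparison the values in barcodes of 1 library only are not given here. EGR1 was at 549, 118 and 229 CPM in the members against 119, 84.3 and 97.2 CPM, highest in E13.5 (log2 fold change 1.36 ± 0.25 (SE), adjusted p = 0.00037). ZFP36 was at 84.8, 16.1 and 32.7 CPM against 13.9, 15.1 and 13.49 CPM (log2 fold change 1.502 ± 0.35 (SE), adjusted p = 0.00218), and IER3 at 119, 1.69 and 79.1 CPM against 6.24, 11.2 and 9.84 CPM (log2 fold change 2.88 ± 0.49 (SE), adjusted p = 0.000189). Both turned in barcodes of 1 library only: IER3 was called lower (-2.86, adjusted p = 0.00465 by edgeR) and ZFP36 was not called (-0.32). IER3 was under the floor in the members of E14.5 and was not called by DESeq2 (2.63). Their part in the other results was not tested.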
